A study of Mus musculus with 15 samples.

Results

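Sarcolipin (Sln) and the atrial myosin light chains Myl7 and Myl4 were followed here as 3 genes measured by 5 of the 45101 probe sets of the array, chosen as every probe set whose platform annotation names exactly 1 gene and that gene is Sln, Myl7 or Myl4. The 3 genes, of 18194 named in the annotation, were chosen by their signals in these same arrays, as large differences between heterozygous and control hearts, so the difference between the genotypes is given below as a description, with no test. In that comparison limma called 98 of 38870 probe sets after Benjamini-Hochberg adjustment (0.252%), 35 of them higher (0.09%) and 63 lower (0.162%) in heterozygous hearts; 3 of the 5 probe sets described here were among the higher calls, which the choice of genes itself fixes. Each value is 1 Affymetrix array of total RNA from the whole heart of 1 male mouse aged 10 weeks. The groups were 7 mice labelled heterozygous for Lmna H222P, an amino acid substitution in the nuclear lamins A and C, and 8 mice labelled control. The labels give no strain, litter, tissue dissection or batch, and nothing beyond the numbering says that the mice are independent, so p-values measure only the spread between these samples. A value called a signal is in the units of the deposited table. Array medians lay between 56.7 and 82.9 units in heterozygous hearts and between 68.5 and 94.2 units in control hearts.

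Sln encodes a small membrane protein of the sarcoplasmic reticulum that binds the calcium pump SERCA and lowers its efficiency; in the mouse heart it is made mainly by atrial muscle, while the ventricle relies on the related inhibitor phospholamban (Pln). Myosin carries 2 kinds of light chain on its lever arm. Myl7 encodes the atrial regulatory light chain and Myl4 the atrial essential light chain, which is also made in embryonic heart and embryonic skeletal muscle. Their ventricular counterparts are Myl2 and Myl3. In RNA of a whole organ, more cells of a type and more RNA per cell cannot be told apart.

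In the GRCm38.p6 assembly Sln lies on chromosome 9 (53850251 to 53853849), and both light chain genes lie on chromosome 11, Myl7 at 5896637 to 5898782 and Myl4 at 104546017 to 104587215. The promoter windows of the RefSeq table, from 250 bases before to 50 after a gene's start, held 2 of the 3 genes and are shown because these genes varied together from heart to heart. They are written 5′ to 3′ on the gene's own strand, from chr11:5898733-5899032 (minus strand) for Myl7 and chr11:104550413-104550712 (plus strand) for Myl4. The Myl4 window begins inside the annotated span of the gene, so it belongs to 1 of its start sites. Capitals mark matches to 6 searched motifs.
Myl7: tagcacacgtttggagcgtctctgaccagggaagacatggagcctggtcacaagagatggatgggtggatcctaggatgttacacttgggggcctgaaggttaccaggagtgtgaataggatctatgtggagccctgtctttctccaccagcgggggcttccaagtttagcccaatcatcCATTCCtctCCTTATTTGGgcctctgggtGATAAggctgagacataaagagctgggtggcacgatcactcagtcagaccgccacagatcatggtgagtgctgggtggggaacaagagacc
Myl4: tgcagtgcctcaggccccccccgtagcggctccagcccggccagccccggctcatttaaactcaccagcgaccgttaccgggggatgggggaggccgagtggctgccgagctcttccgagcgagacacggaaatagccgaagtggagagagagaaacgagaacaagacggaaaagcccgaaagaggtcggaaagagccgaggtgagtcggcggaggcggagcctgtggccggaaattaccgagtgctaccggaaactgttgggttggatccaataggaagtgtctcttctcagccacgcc
The motifs were the CArG box (bound by serum response factor), CATTCC (the M-CAT element), GATAA (GATA factors), TNAAGTG (NKX2-5), GGTGTG (T-box factors) and TATAAA, each read on both strands. The Myl7 window held a CArG box that began 61 bases before the start site, a CATTCC 70 bases before it and a GATAA 41 bases before it, none of them overlapping. The Myl4 window held none of the 6, which says only that these letters are not in this window. Of 32841 windows of the same length in the table, 1.63% held a CArG box, 14.7% a CATTCC, 25.4% a GATAA, 11.5% a TNAAGTG, 19.0% a GGTGTG and 13.6% a TATAAA. The window of the ventricular gene Myl3 held a CArG box, CATTCC and GATAA as well.

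Sln had the widest range of the 3 genes. Its brighter probe set, 1420884_at, read 241.0, 1038.8 and 5110.1 units as the lowest, median and highest of the heterozygous hearts, against 2.8, 6.0 and 406.7 units in control hearts. All heterozygous hearts were above their array's median signal, while 7 of the 8 controls were at or below 12.2 units, far under it. The exception was control array 6, whose 406.7 units exceeded heterozygous arrays 1 and 7, so the groups overlapped. On the log2 scale the means were 9.73 ± 1.51 (SD, n = 7) in heterozygous and 3.36 ± 2.23 (SD, n = 8) in control hearts, a difference of 6.37 with a standard error of 0.93. Among the 38870 probe sets tested, only 1 had a larger difference toward higher signal in heterozygous hearts. This probe set passed the filter on low signals, a log2 signal above 4 on at least 7 arrays, through the 7 heterozygous arrays and control array 6. The controls' signals lay where array values scatter, so the size of the fold change depended on how weak signals are treated: with every signal under 64 units set to 64, which held for 7 of the 8 controls, the log2 difference was 3.40, so heterozygous hearts were at least 10.5-fold higher.

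The other Sln probe set, 1420883_at, did not show this pattern. It read 5.0, 14.2 and 65.5 units in heterozygous hearts, against 12.2, 18.4 and 89.4 units in control hearts. The groups overlapped over most of their range, and control array 6 lay among the other controls. Its log2 difference was -0.94 (SE 0.58). No heterozygous array and only 1 control array brought this probe set above the array's median signal, so it carries little signal. The 2 probe sets named for Sln thus disagree. Over all arrays 1420883_at was the weaker, but in control hearts the order was reversed, with its median of 18.4 units above the 6.0 units of 1420884_at.

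Myl7, the regulatory light chain, had a single probe set, 1449071_at. Its signals were 451.9, 2626.3 and 5877.5 units in heterozygous hearts, against 24.7, 52.1 and 1212.9 units in control hearts. The highest control was again array 6, and the next highest, array 2, had 120.1 units, below every heterozygous heart. Mean log2 signals were 10.84 ± 1.31 (SD, n = 7) in heterozygous and 6.15 ± 1.78 (SD, n = 8) in control hearts, a difference of 4.69 (SE 0.77), the third largest toward higher signal. As 6 controls lay under 64 units, the same floor gave at least 18.4-fold higher signals in heterozygous hearts.

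Myl4, the essential light chain, was measured well above the array median in every control heart too. Probe set 1422580_at read 706.0, 2121.1 and 5034.0 units in heterozygous hearts, against 182.1, 227.3 and 1399.8 units in control hearts. Control array 6 held the highest control value and the other 7 controls lay within 182.1 to 278.2 units, the tightest group of the 3 genes at an SD of 0.21 on the log2 scale. Mean log2 signals were 10.93 ± 1.01 (SD, n = 7) in heterozygous and 8.10 ± 0.97 (SD, n = 8) in control hearts, a difference of 2.83 (SE 0.48) that ranked 9 toward higher signal, or 7.10-fold. The other Myl4 probe set, 1457126_at, read 72.9, 117.8 and 165.7 units in heterozygous hearts, against 31.1, 176.7 and 306.1 units in control hearts. Its log2 difference was -0.07 (SE 0.47) and turned to 0.13 when each array was centred on its median and to 0.06 after quantile normalization. On the array with the largest values of the brighter Myl4 probe set, heterozygous array 5, this probe set had 80.3 units, the second lowest of its group.

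**Figure D1:**
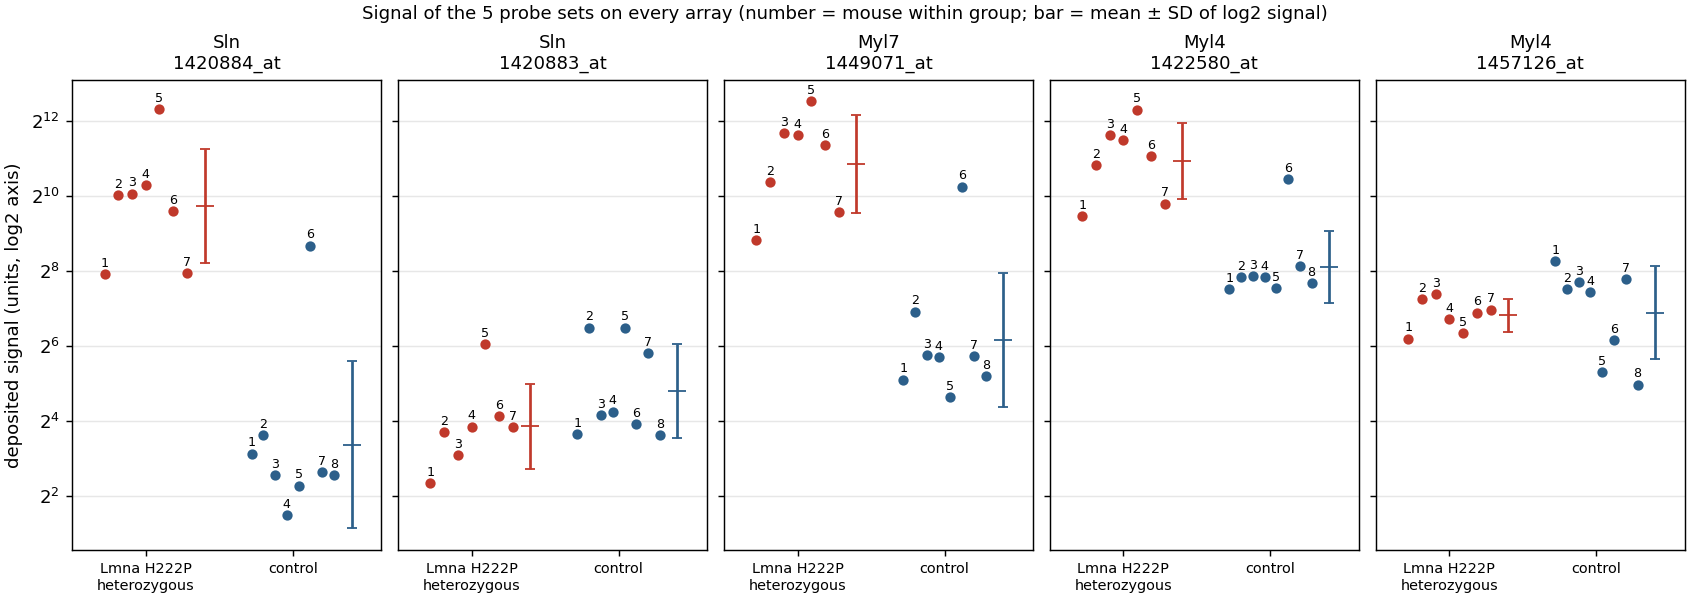
Deposited signal (log2 axis, units of the table) of the 5 probe sets on each of the 7 Lmna H222P heterozygous (left, red) and 8 control hearts (right, blue), 1 point per mouse with its number; the bar is the mean ± SD of log2 signals. In Sln 1420884_at, Myl7 and Myl4 1422580_at, 7 controls lie below all heterozygous hearts and control array 6 lies above heterozygous arrays 1 and 7, while the groups overlap in Sln 1420883_at and Myl4 1457126_at.

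Within the heterozygous hearts the brighter probe sets of Sln and Myl4 and the probe set of Myl7 followed each other from mouse to mouse. The same arrays were at the ends for all 3 genes: array 5 was the highest, and array 1 the lowest, followed by array 7. The highest signal was 21.2 times the lowest for Sln, 13 times for Myl7 and 7.13 times for Myl4. Myl7 and Myl4 ranked the 7 hearts in exactly the same order. Deviations within a group do not enter the difference between group means, by which the 3 genes were chosen. The genes and tests were still chosen with earlier results of these data known, so the p-values are not free of that choice. Within each group 6 correlations of log2 signals were tested, 12 in all. They were given exact two-sided permutation tests with Benjamini-Hochberg adjustment over the 12.

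In heterozygous hearts Myl7 and Myl4 correlated with a Pearson r of 0.985 (exact permutation p = 0.000198, adjusted 0.0024, n = 7) and a Spearman rho of 1.0 (exact permutation p = 0.000397, adjusted 0.0048). Sln correlated with Myl4 at r = 0.952 (exact permutation p = 0.0024, adjusted 0.0111) and rho = 0.929 (exact permutation p = 0.0067, adjusted 0.0217), over the same hearts. Sln with Myl7 gave r = 0.907 (exact permutation p = 0.0028, adjusted 0.0111) and rho = 0.929 (exact permutation p = 0.0067, adjusted 0.0217). Without the 2 arrays farthest from the median of the x axis, which left 5 hearts, r was 0.946 for Myl7 with Myl4, 0.921 for Sln with Myl4 and 0.809 for Sln with Myl7. The exact permutation p-values were then 0.025, 0.0583 and 0.0667, and each adjusted value was 0.200. No relation passed with these 5 hearts, though the coefficients stayed high. With 1 heart left out at a time, Myl7 with Myl4 passed in every case, while both Sln relations did not pass without array 1 or array 7. The difference of log2 Myl7 minus log2 Myl4 varied with an SD of 0.36 across heterozygous hearts, less than either gene alone (SD 1.31 and 1.01). For each log2 unit of Myl7, Myl4 changed by 0.76 ± 0.06 (SE, n = 7) and Sln by 1.05 ± 0.22 log2 units.

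Among the control hearts the Pearson coefficients depended on array 6. With all 8 controls r was 0.952 for Myl7 with Myl4 (exact permutation p = 0.0112, adjusted 0.0336), 0.938 for Sln with Myl7 (exact permutation p = 0.0183, adjusted 0.0439) and 0.938 for Sln with Myl4 (exact permutation p = 0.0684, adjusted 0.137). The Spearman coefficients were 0.881, 0.611 and 0.419, with exact permutation p-values of 0.0072, 0.116 and 0.304 (adjusted 0.0217, 0.278 and 0.608). Array 6 stood apart from the other 7 controls, and without it r was 0.582, 0.456 and -0.06 over 7 hearts, with exact permutation p-values of 0.171, 0.292 and 0.909. The Spearman coefficient of Myl7 with Myl4 was still 0.821 without it (exact permutation p = 0.0341, adjusted 0.102), and those of Sln with Myl7 and with Myl4 were 0.414 and 0.126 (exact permutation p = 0.360 and 0.798). Leaving out the 2 arrays farthest on the x axis gave 0.831, 0.754 and 0.05 over 6 hearts, with exact permutation p-values of 0.0347, 0.0861 and 0.894 (adjusted 0.200, 0.207 and 0.979). In controls without array 6, Sln signals lay between 2.8 and 12.2 units, where an order of arrays carries little information. The tests of Sln in controls therefore cannot decide whether it varied with Myl7 or Myl4 there.

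**Figure D2:**
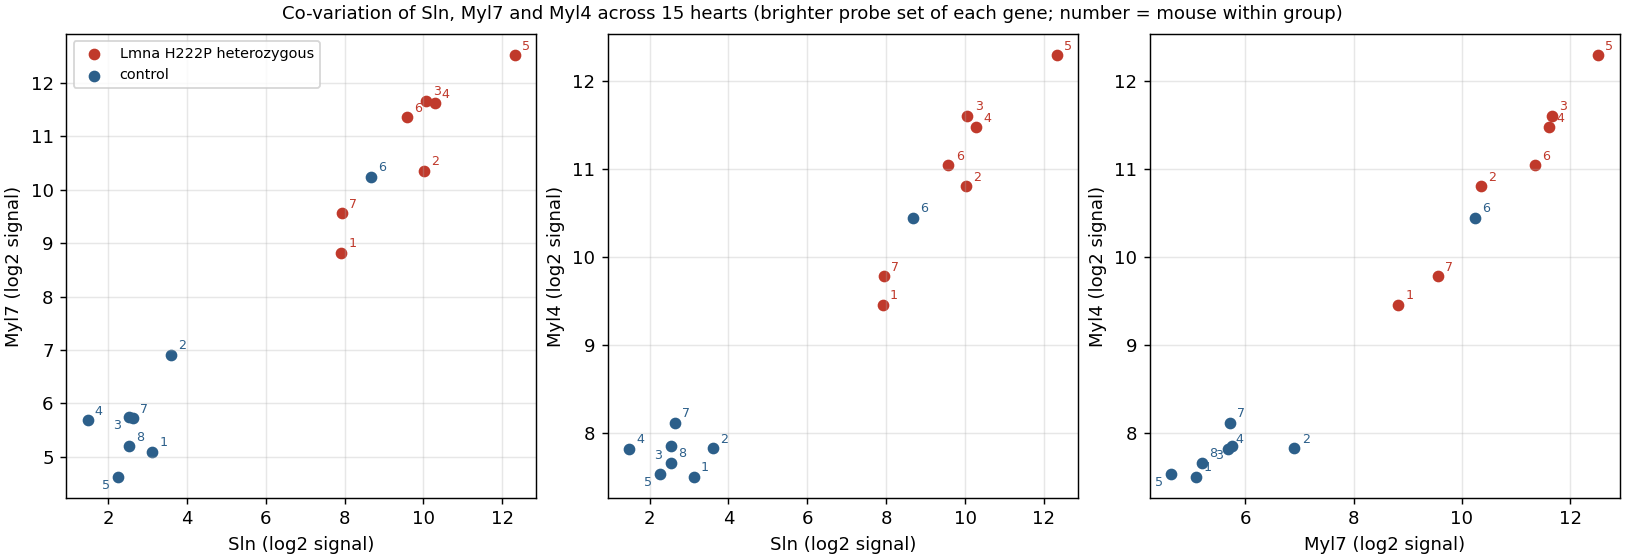
Log2 signals of Sln against Myl7, Sln against Myl4 and Myl7 against Myl4 (brighter probe set of each gene) in 7 Lmna H222P heterozygous (red) and 8 control hearts (blue), 1 numbered point per mouse. The heterozygous hearts and control array 6 lie along a common line in each panel, and the other 7 controls form a separate cloud at the low end.

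Control array 6 stood so far from the other controls that its displacement was measured gene by gene. With signals under 64 units set to 64, it was at least 6.35-fold higher than the geometric mean of the other 7 controls in Sln and at least 17.3-fold in Myl7. In Myl4, where no control lay under 64 units, it was 6.44-fold higher. The heterozygous group stood at least 13.3-fold, at least 26.3-fold and 8.97-fold above the same 7 controls. On the log2 scale with this floor, array 6 covered 71.5% of the distance between the other controls and the heterozygous mean for Sln, 87.3% for Myl7 and 84.9% for Myl4. In each gene 5 of the 7 heterozygous hearts lay above it. On the log2 scale of the signals as deposited, none of the 38870 probe sets was higher on array 6 than the mean of the other controls by more than Sln, 1 (Sln itself) by more than Myl7 and 50 by more than Myl4. In the other direction, 0, 6 and 345 probe sets were lower on array 6 by more than these amounts. Of the 35 probe sets called higher in heterozygous hearts by limma, 11 had array 6 as their highest control, against 14.9% of all probe sets tested; the 3 described here are part of the 11.

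Most other atrial markers lay within or below the range of the other controls on control array 6. Nppa, the atrial natriuretic peptide, read 5961.0 units on it, within the 5159.4 to 10063.9 units of the other controls. Dkk3, a secreted protein of atrial muscle, read 78.4 units (56.0 to 168.1 in the other controls), and Mybphl, a myosin-binding protein of the atria and conduction system, 10.3 units (4.8 to 120.4). Pam, the amidating enzyme abundant in atrial granules, was the highest control at 442.2 units, against at most 275.2. The atrial transcription factor gene Nr2f2 (298.5 units, at most 246.2 in the other controls) and the Notch target Hey1 (298.2 units, at most 233.2) were also highest on it. Array 6 was thus the highest control in 3 of 18 other atrial markers tested, beside 14.9% of all probe sets. Bmp10 and Fgf12 were lowest on it, at 5.9 and 8.0 units.

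Many, but not all, fast skeletal muscle genes had high signals on control array 6. It was the highest control in 8 of 12 such markers, beside 14.9% of all probe sets. Among the 8 were Myh4 at 118.1 units (at most 78.9 in the other controls), the fast regulatory light chain Mylpf at 201.8 units (at most 80.8) and the fast troponin Tnni2 at 165.5 units (at most 80.2). The skeletal calcium store protein Casq1 was lowest on it, at 192.7 units against 381.1 to 493.6, and Actn3 and Myh2, at 10.8 and 19.6 units, lay within the range of the other controls. The summed signal of the 12 was 2363.7 units on array 6, against 1286.1 to 1645.9 units on the other controls, and in 8 of the 12 the mean level over all arrays was below the lowest array median. In heterozygous hearts this sum ran from 990.5 units on array 5 to 6294.7 units on array 1, where Sln, Myl7 and Myl4 were lowest. Other arrays did not follow that order. The second highest sum was 3162.1 units on array 3, where Myl7 and Myl4 were second highest. The second lowest was 1055.3 units on array 7, where Sln, Myl7 and Myl4 were second lowest. The fast light chain gene Myl1 made up 5039.3 units on array 1 and 197.1 units on array 5. Without Myl1 the other 11 genes summed to 1322.0 units on control array 6, again the highest control, and in heterozygous hearts ran from 694.2 units on array 2 to 1255.4 units on array 1, with 793.4 units on array 5, where Sln, Myl7 and Myl4 were highest. The ratio of 3′ to 5′ signal of the Actb control probe sets, a measure of RNA quality, was also highest in its group on array 6, at a log2 of 1.23 against at most 0.92 on the other controls, and it was 1.69, 1.41 and 1.32 on heterozygous arrays 2, 5 and 3 against at most 0.71 on the other 4. The part of these in the results on Sln, Myl7 and Myl4 was not tested.

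**Figure D3:**
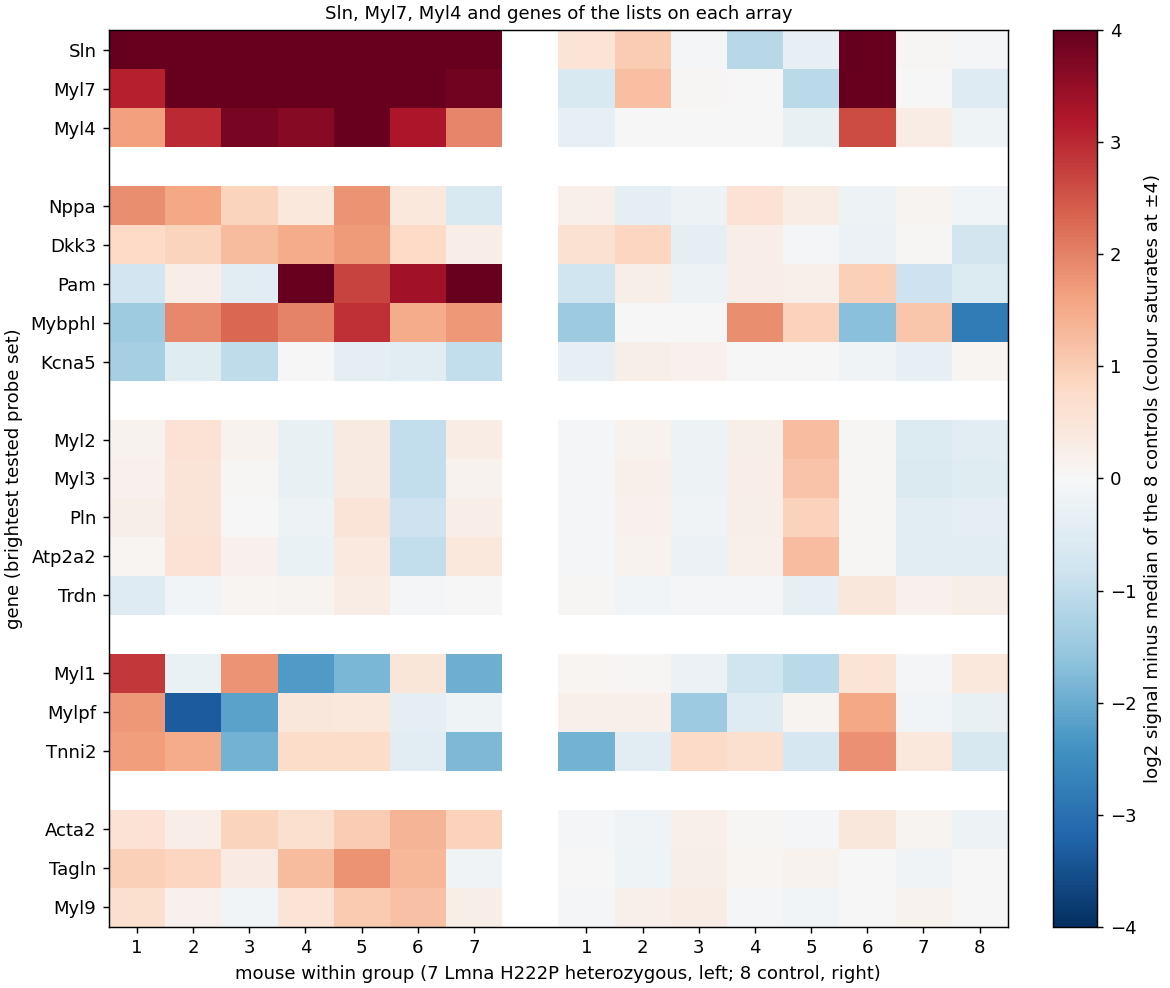
Log2 signal minus the median of the 8 controls (colour, saturating at ±4) for Sln, Myl7, Myl4, other atrial genes, ventricular and calcium cycling genes, fast skeletal muscle genes and smooth muscle genes, by row, on 7 Lmna H222P heterozygous (left) and 8 control arrays (right). Control array 6 is red in Sln, Myl7, Myl4, Mylpf and Tnni2 and pale in Nppa and Dkk3; control array 5 is raised in Myl2, Myl3, Pln and Atp2a2.

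The ventricular counterparts of the 3 genes showed no such pattern. Myl2, the ventricular regulatory light chain, read 15445.1, 33649.3 and 45503.0 units in heterozygous hearts, against 21171.9, 30664.8 and 71998.0 units in control hearts, and its log2 difference was -0.02 (SE 0.27; limma adjusted p = 0.981). Myl3, the ventricular essential light chain, differed by -0.05 (SE 0.26; limma adjusted p = 0.948), Pln, the ventricular inhibitor of the calcium pump, by 0.03 (SE 0.24; limma adjusted p = 0.973) and the pump itself, Atp2a2, by -0.002 (SE 0.27; limma adjusted p = 0.999). The signals of Myl2, Myl3, Pln and Atp2a2 were bright on every array. Each was highest on control array 5 and lowest on heterozygous array 6. The highest signal of any probe set was also largest on that control array, at 80754.9 units, and smallest on that heterozygous array, at 17206.8 units. These genes may thus follow the top of each array's scale, which was not tested. Other probe sets of Atp2a2 differed by -0.04 to 0.94, and none of its 6 passed. Of 9 ventricular markers tested none passed. At an unadjusted limma p under 0.05, 0 of them were higher and 1 lower, beside 14.6% of all probe sets. Myl7 and Myl2 were not correlated within either group, at r = -0.22 and rho = -0.11 in heterozygous hearts (exact permutation p = 0.644 and 0.840, n = 7) and r = -0.13 and rho = -0.17 in control hearts (exact permutation p = 0.655 and 0.703, n = 8).

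The other genes of the same protein families and pathways were compared with the fit across all probe sets. The split of its 98 calls into 35 higher and 63 lower depended on the scaling: centring each array on its median gave 51 higher and 14 lower, and quantile normalization gave 37 higher and 28 lower. The median log2 difference of all probe sets was -0.11. Of 19 other myosin light chain genes and their regulators none passed, with 3 higher and 2 lower at an unadjusted limma p under 0.05, a level that 14.6% of all probe sets reached, and the list's median log2 difference was -0.05. The smallest p-values were those of the non-muscle and slow muscle light chain Myl6b (log2 difference 1.83, SE 0.49, adjusted p = 0.138), the cardiac light chain kinase Mylk3 (-0.53, SE 0.15, adjusted p = 0.154) and the skeletal muscle kinase Mylk2 (-1.36, SE 0.43, adjusted p = 0.192). Myl6b was weak, at 11.3 to 55.4 units in heterozygous and 2.8 to 43.5 units in control hearts. Mylk3, which phosphorylates the ventricular regulatory light chain, had 2857.8 to 4236.4 units in heterozygous and 4306.6 to 7273.8 units in control hearts, and it did not pass. The gap between its groups was narrow and is that of signals as deposited, where array medians ran lower in heterozygous hearts. The share of all probe sets with such a gap was not counted. No gene of this list other than Myl7 and Myl4 was among the calls.

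Of 21 other genes of sarcoplasmic reticulum calcium cycling, none passed either, with 0 higher and 4 lower at an unadjusted limma p under 0.05 (14.6% of all probe sets) and a median log2 difference of -0.11. The smallest p-values belonged to Ppp1r3a, a glycogen and reticulum targeting subunit of protein phosphatase 1 (-0.90, SE 0.25, adjusted p = 0.147), the junctional protein gene Asph (-0.61, SE 0.21, adjusted p = 0.210) and the luminal calcium-binding protein Hrc (-0.43, SE 0.15, adjusted p = 0.218). The skeletal muscle regulator of the pump Mrln, in the same family of small membrane proteins as Sln, differed by -0.68 (SE 0.28, adjusted p = 0.286).

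The other atrial markers were compared with the same fit. Of 18 tested genes 12 had a log2 difference above 0, against 39.9% of all probe sets, with a median of 0.24, but none passed; 4 higher and 2 lower had an unadjusted limma p under 0.05, beside 14.6% of all probe sets. Dkk3 had 110.9, 172.0 and 302.8 units in heterozygous hearts, against 56.0, 93.0 and 168.1 units in control hearts (log2 difference 0.98, SE 0.26, adjusted p = 0.133). The potassium channel gene Kcna5 had a log2 difference of -0.62 (SE 0.19, adjusted p = 0.188) and Pam one of 2.10 (SE 0.79, adjusted p = 0.249). Pam was bright on heterozygous arrays 4, 5, 6 and 7, at 1485.5 to 6479.2 units, and stayed at 133.3 to 277.4 units on arrays 1, 2 and 3, an order unlike that of Sln, Myl7 and Myl4. Myl7 was correlated with the mean of these 18 markers neither in heterozygous hearts (r = 0.567, rho = 0.286, exact permutation p = 0.193 and 0.556, n = 7) nor in control hearts (r = -0.57, rho = -0.17, exact permutation p = 0.104 and 0.703, n = 8), where all 4 adjusted values were 0.178 or more. Without the 2 farthest arrays r was 0.262 in heterozygous and 0.272 in control hearts. Myl7 and the array median gave r = 0.09 in heterozygous and 0.346 in control hearts (exact permutation p = 0.845 and 0.345), with rho = 0.25 and 0.286.

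Genes whose pattern was most like that of Sln, Myl7 and Myl4 were sought over the 15 arrays as the Pearson correlation of each tested probe set's deviations from its group means with the mean deviation of the 3 genes, over 30751 probe sets of other named genes. The measure is a description, and arrays of a group share whatever sets them apart. Each of the 3 genes correlated with the mean of the other 2 at 0.937 (Sln), 0.953 (Myl7) and 0.953 (Myl4), and at 0.801, 0.845 and 0.890 without control array 6. The 10 most similar genes were Zfyve16, Qdpr, Insig1, Sostdc1, Acly, Hamp, Klhl13, Naa16, Rbbp4 and Derl1, with r from 0.908 to 0.797. They include the sterol regulator Insig1, the fatty acid synthesis enzyme Acly, the BMP and Wnt antagonist Sostdc1 and the iron hormone Hamp. Hamp read 105.4, 172.9 and 455.6 units in heterozygous hearts, against 53.8, 100.2 and 265.7 units in control hearts, with 265.7 on array 6. Control array 6 was the highest control in all 10 genes, beside 14.9% of all probe sets, but its own values entered the measure. Without it their r lay between 0.492 and 0.870, and only Sostdc1 stayed among the 10 most similar. Sostdc1 was weak, at 4.7 to 36.8 units in heterozygous and 14.4 to 71.6 units in control hearts. The lowest r among other probe sets was -0.73 for Acly, -0.79 for Rbbp4, -0.66 for Derl1 and -0.25 for Klhl13. It was -0.20 for Sostdc1 and -0.01 for Qdpr, against 0.63 for Hamp and 0.60 for Naa16. Zfyve16 and Insig1 had only 1 tested probe set each. None of the 10 passed the comparison of genotypes (limma adjusted p from 0.272 to 0.978).

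**Figure D4:**
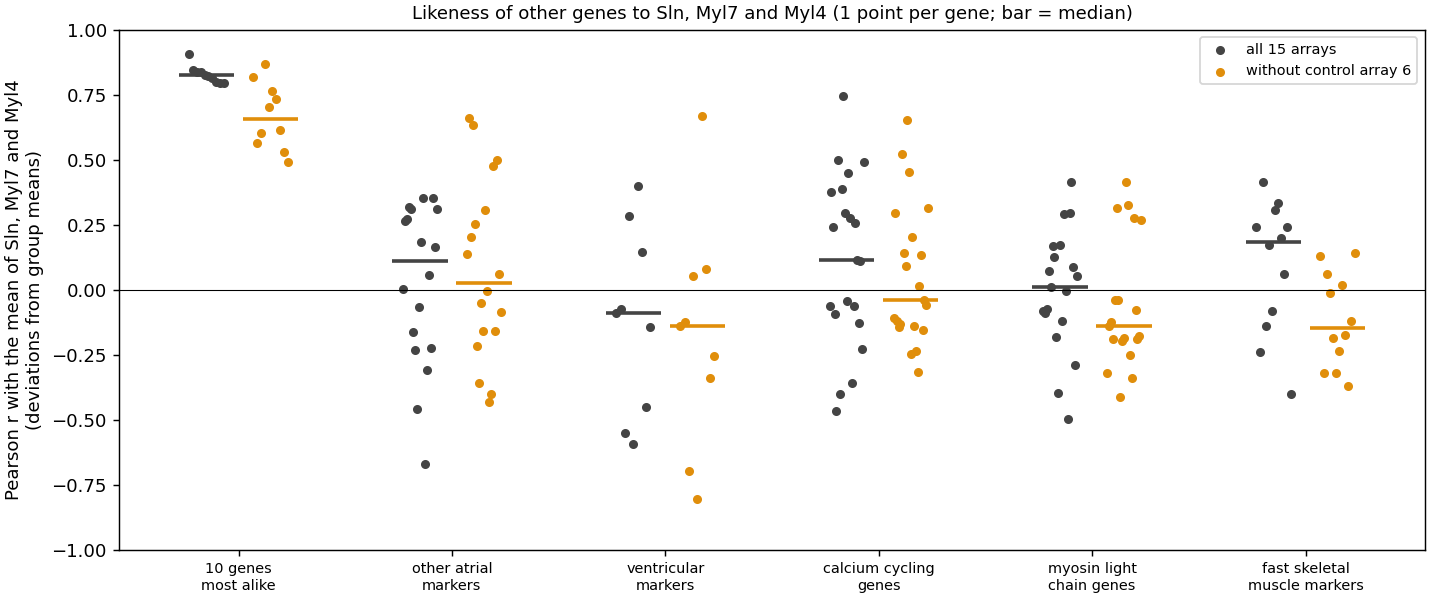
Pearson correlation of each gene's deviations from its group means with the mean deviation of Sln, Myl7 and Myl4, 1 point per gene with the median as a bar, over all 15 arrays (grey) and without control array 6 (orange). The 10 most similar genes fall to between 0.492 and 0.870 without that array, and the medians of the 5 lists plotted beside them lie between -0.15 and 0.19.

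The lists fixed for comparison had few genes of that pattern. The median likeness was 0.111 over the 18 other atrial markers, -0.09 over the 9 ventricular markers, 0.117 over the 21 calcium cycling genes and 0.187 over the 12 fast skeletal muscle markers, against 0.03 over all probe sets. Without control array 6 the medians of these lists were 0.03, -0.14, -0.04 and -0.15, in the same order. In the calcium cycling list Trdn, which anchors the calcium release complex and was picked out after its values were seen, had the highest likeness, 0.745 with all arrays and 0.655 without control array 6. Trdn read 3802.8, 5540.2 and 6712.8 units in heterozygous hearts, against 4365.9, 5467.2 and 7559.2 units in control hearts, with the highest values on heterozygous array 5 and control array 6 and the lowest heterozygous value on array 1. Its genotype difference was -0.07 (SE 0.15, adjusted p = 0.866), and those of its other 5 probe sets ran from -0.09 to 0.75. Among the other atrial markers none exceeded 0.5 with all arrays. Without control array 6, Dkk3 (0.662), Kcna5 (0.636) and Cacna1d (0.502) did so, against 5.55% of all probe sets. The 18 markers then ran down to -0.43 in Fgf12. Without that array 1 of the 9 ventricular markers and 2 of the 21 calcium cycling genes also exceeded 0.5.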

How the data were processed

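Signals of 45101 probe sets on 15 one-colour arrays were analysed as deposited. The values are intensities on a linear scale, from 0.1 to 80754.9, made by the authors; GCRMA is named per the submitters' processing notes, without a version. With 2% of values trimmed at each end, every array had a mean of 250.0, so the deposited signals had been brought to a shared level, and how probes were summarised is not settled. RNA was isolated with an RNeasy kit, per the labels' protocols. Arrays give no counts; their number limits the precision. At most 0.290% of values were identical between any pair of arrays.

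Log2 signals took no pseudocount. Of 34958 probe sets with 1 gene symbol, 34754 were found by gene identifier in the RefSeq table, which changed no symbol; 932 had several symbols and 9211 none. The tests did not include the array's 64 control probe sets. Probe sets above a log2 of 4 on at least 7 arrays (38870) were fitted with limma 3.58.1 in R 4.3.3 (group as the only term, Benjamini-Hochberg at 0.05). A gene is represented by its brightest tested probe set. Exact permutation tests used Python 3.11.15 with numpy 2.4.6; figures used matplotlib 3.10.9. The fit and the likeness measure were tested on simulated data.

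The genes, lists and tests were chosen with earlier results of these data known. The rule named every probe set of the 3 genes, the 10 most alike, passing list genes and up to 3 others per list by p, bright defining markers of other cell types, Myl2, Myl3, Pln and Atp2a2; the other list genes named (Nppa, Mybphl, Nr2f2, Hey1, Bmp10, Fgf12, Cacna1d, Mrln, Trdn and the fast skeletal muscle genes) were chosen after their values were seen. Alternatives covered scaling, filter, floor, array weights, prior, replicate block and leaving out each array.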

Additional observations from a re-analysis of the deposited data

Results flagged for a closer look

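Control array 6 lay far above the other controls in 3 probe sets: Sln 1420884_at at 406.7 units, where the next control had 12.2, Myl7 1449071_at at 1212.9 units, where the next had 120.1, and Myl4 1422580_at at 1399.8 units, where the next had 278.2. The gap to the next control made up 70.4%, 59.4% and 79.2% of the range of the 8 log2 signals. Control array 5 held the outlying control value in Myl2 at 71998.0 units (next 35948.0) and in Atp2a2 at 59611.5 units (next 29347.5), without standing apart in Sln, Myl7 or Myl4. The highest signal of any probe set on that array, 80754.9 units, was likewise above the at most 37820.2 units of the other controls. Of 18 groups of values examined in this way 5 stood out. Chance flags about 1 in 20 independent groups, but these 5 come from 2 arrays and from genes that vary together, so the counts cannot be set against each other.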

How the results depend on the processing

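The differences between genotypes of the brighter Sln, Myl7 and Myl4 probe sets kept their sign under every alternative run. Leaving out each array gave 5.94 to 7.13 for Sln, 4.41 to 5.28 for Myl7 and 2.60 to 3.16 for Myl4, the upper ends without control array 6. The floor of 64 units took Sln to 3.40, since most control signals lie under it. The values showed no sign that the title numbers pair the mice (correlations of same-numbered deviations from -0.06 to 0.06, none of 7 pairs over 0.1). Such correlations cannot exclude a shared litter or batch. With the replicate block the differences were 6.26 for Sln, 4.55 for Myl7 and 2.77 for Myl4, blood marker calls went to 0, and calls among all probe sets to 1, against 98. Those calls ranged from 17 to 150 with an array left out and numbered 192 with the filter at 6, 65 after median centring or quantile normalization, 287 with the floor and 312 with a trended and robust prior.

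Without the 2 farthest arrays the heterozygous correlations were 0.809 (Sln with Myl7), 0.921 (Sln with Myl4) and 0.946 (Myl7 with Myl4), none past the threshold; fewer samples were left. With 1 array left out they ran from 0.879 to 0.936, 0.935 to 0.972 and 0.976 to 0.992; both Sln relations lost the call without array 1 or array 7, and Myl7 with Myl4 kept it. In controls Sln with Myl7 lost the call after quantile normalization (0.933), median centring (0.936), the floor (0.977), without the 2 farthest (0.754), and without array 2, 3, 5, 6 or 7 (0.456 to 0.965 over all 8). Myl7 with Myl4 in controls lost it with the floor (0.963), median centring (0.937), without the 2 farthest (0.831) and without array 3, 5 or 6 (0.582 to 0.992). Myl7 with the mean of the other atrial markers passed in controls without array 8 (-0.87; others up to -0.22) and ran from -0.45 to 0.857 in heterozygous hearts, with no call. Apart from the arrays left out, the cause was not tested.

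Smooth muscle calls were 1 with the filter at 6 or the floor, 2 with the trended and robust prior and 0 to 1 with an array left out (1 without heterozygous array 2 or 7). Blood marker calls were 1 after median centring, 4 with the floor and 1 to 3 with an array left out. Of the 10 genes most alike, 4 were shared after median centring, 2 with Spearman coefficients and 1 without control array 6. Signals near the array's low end limit Sln in controls.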

Other observations

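No smooth muscle marker was called between the genotypes. Of 8 tested, 6 had a log2 difference above 0 (median 0.69), against 39.9% of all probe sets, and 5 of them an unadjusted limma p under 0.05, a level that 14.6% of all probe sets reached. Acta2, the smooth muscle actin, had 4370.9, 6857.9 and 9424.2 units in heterozygous hearts, against 3167.6, 3668.5 and 5038.6 units in control hearts (limma adjusted p = 0.0755). Other probe sets of Acta2 had log2 differences of -1.55 and 0.95, and none of its 3 passed. Tagln, an actin-binding protein of smooth muscle, differed by 0.89 (SE 0.24, limma adjusted p = 0.129). Array 6 was the highest control in 1 of the 8, Acta2, beside 14.9% of all probe sets. Its summed signal of the 8 was the highest control value, at 7975.9 units, but without Acta2 the other 7 summed to 2937.3 units on it, within the 2798.7 to 3524.4 units of the other controls.

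Among 6 markers of blood cells limma called 2 as lower in heterozygous hearts, against 0.162% of all probe sets. They were the platelet chemokine Ppbp (-1.97, SE 0.21, adjusted p = 0.0012) and Alas2, the first enzyme of heme synthesis in red cells (-1.37, SE 0.22, adjusted p = 0.0255). The calls came to 1 after median centring and to 0 with the replicate block. The other 4 did not pass (log2 differences from -1.31 to -0.18), though another probe set of Slc4a1, the red cell anion exchanger, did, at -1.80. None of the 6 had a difference above 0, against 39.9% of all probe sets (median -1.03). The summed signals of the 6, as deposited, were 1747.5 to 3374.0 units in heterozygous and 3440.7 to 4329.8 units in control hearts. The gap was narrow and depends on the scaling. Heterozygous array 1, with the highest sum of its group, had an array median of 63.4 units, and control array 5, with the lowest of its group, 79.6 units. How often like sums of other genes separate the groups was not counted. Control array 6, with 3766.7 units, lay inside the control range. In the sinus node, epicardial, lung and T cell lists no gene was called. At an unadjusted limma p under 0.05, 0 were higher and 1, 2, 1 and 0 lower among 6, 9, 6 and 5 tested. Of all probe sets 14.6% reached that level.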
